A study of Gallus gallus with 2 samples.

Results

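The HOX genes of chicken were followed in ileal RNA from corn-fed and paddy rice-fed birds. Members were the genes named HOXA, HOXB, HOXC or HOXD with a number, for which the array annotation gives at least 1 chicken probe set that belongs to no other gene. There were 29 such genes among 13008 named genes, read by 59 of the 37693 chicken probe sets, with 10 genes in the HOXA cluster, 9 in HOXB, 4 in HOXC and 6 in HOXD. The RefSeq gene table of assembly GRCg7b lists all 29 under the same symbols. Male White Leghorn chicks, 9 in each group, ate a diet with corn (the control) or paddy rice, which is rice in its hull, at 650 g/kg for 2 wk from 1 to 3 wk of age. The methods state that crude protein and metabolizable energy were not equalised between diets. RNA of 3 birds from each group, picked by the authors for an average ileal MUC2 level, was mixed and hybridised to 1 GeneChip Chicken Genome Array, so 2 arrays stand for the study. Each diet is 1 pool, so no error between birds, test or p-value can be given, and each ratio (signal on paddy rice over signal on corn) describes a pair of pools. The piece of ileum was taken beside the tip of the cecum and flushed, and no separation of its wall layers is described, so fewer cells of a type and less RNA per cell cannot be told apart.

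HOX proteins are transcription factors with a homeodomain that give cells their position along the head to tail axis. Their genes lie in clusters, and a gene's number gives its place there: low numbers act towards the head and high numbers towards the tail. In the embryonic gut the nested HOX domains lie mainly in the mesoderm that forms smooth muscle and connective tissue, and also in enteric neurons, and they help to set the borders between foregut, midgut and hindgut. HOX proteins bind DNA together with PBX, MEIS and PKNOX cofactors. Their genes are held silent by Polycomb proteins, kept active by Trithorax proteins, and switched on in the embryo by retinoic acid and CDX factors.

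Signals are linear MAS5 intensities in arbitrary units, which the authors had scaled to a trimmed mean of 500.1 on each array. The level of background was taken as the 95th percentile of 689 probe sets that the array does not mark as chicken, which was 44.1 in the corn pool and 45.1 in the paddy rice pool. A gene takes the value of its brightest probe set, the one of highest mean log2 signal over both arrays. The median signal of chicken probe sets was 110.5. Log2 ratios of different probe sets for the same gene had an SD of 0.27 at or above that median (4028 genes), and of 0.47 between background and the median (537 genes). This SD covers disagreement between probe sets and says nothing of birds. Defining markers of ileum were present on both arrays. FABP6, the ileal bile acid binding protein, had a signal of 31195 in the corn pool and 35027 in the paddy rice pool, and SLC10A2, the ileal bile acid transporter, 13832 and 14136.

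Most of the HOXA cluster gave signals above background on both diets, while the other clusters did so in part. Of the 29 genes, 18 lay above background on both arrays, against 82.5% of all named genes, 7 on 1 array and 4 on neither, against 10.9% of named genes on neither. By cluster, 9 of 10 HOXA genes, 4 of 9 HOXB genes, 2 of 4 HOXC genes and 3 of 6 HOXD genes were above background on both. By place in the cluster, this held for 5 of 8 anterior genes (numbers 1 to 4), 5 of 9 central genes (5 to 8) and 8 of 12 posterior genes (9 to 13). Signals of different probe sets are not on a common scale, so genes are set against background and not against each other.

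**Figure D1:**
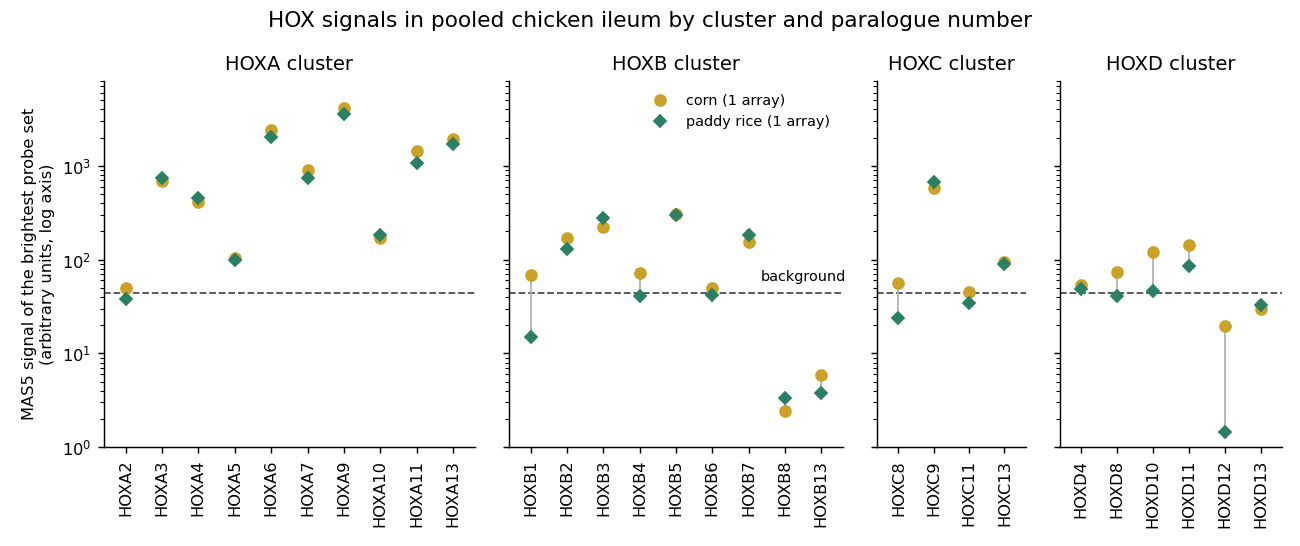
Signal of the brightest probe set of each HOX gene on the corn array (circles) and the paddy rice array (diamonds), with genes ordered by cluster and paralogue number and signal on a log axis. The dashed line is the mean of the background levels, 44.1 in the corn pool and 45.1 in the paddy rice pool; 9 of 10 HOXA genes and 3 of 6 HOXD genes lie above it on both arrays.

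Within the HOXA cluster, only HOXA2, a gene of the hindbrain and its neural crest, was near background, with a signal of 49.3 in the corn pool and 37.7 in the paddy rice pool. HOXA3, which patterns the pharyngeal arches, had 691 and 737, a ratio of 1.07. HOXA4 had 409 and 457, a ratio of 1.12. On their brightest probe sets HOXA3 and HOXA4 stood 9.26 to 16.4 times above background and differed between diets by less than the SD between probe sets. The second HOXA3 probe set differed by more, with a ratio of 0.554.

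HOXA5, which in the mouse takes part in lung and gut development, had a signal of 103 in the corn pool and 99.4 in the paddy rice pool, or 2.34 and 2.21 times background. HOXA6 had 2391 and 2032, a ratio of 0.850. HOXA7 had 912 and 738, a ratio of 0.809. On their brightest probe sets the 3 central HOXA genes were above background and had ratios under 1, none past a threshold. For HOXA5 and HOXA6 this rests on the probe set: the median over probe sets gave 0.601 for HOXA5, below 0.67, and 1.06 for HOXA6, and HOXA5 was at 0.375 without its shared probe set.

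HOXA9, best known from blood progenitors and leukaemia, had a signal of 4078 in the corn pool and 3592 in the paddy rice pool, 92.4 and 79.7 times background. HOXA10 had 170 and 182, a ratio of 1.07. HOXA11, a gene of limb and kidney development, had 1453 and 1074, a ratio of 0.739. This was the lowest ratio among the HOXA genes above background, and its second probe set, marked as shared between transcripts, went from 160 to 108, a ratio of 0.676. HOXA13, the last gene of the cluster and a marker of hindgut and cloaca, had 1927 and 1724, a ratio of 0.895. HOXA13 was thus well above background in both pools, 43.7 times on corn and 38.3 times on paddy rice, in tissue labelled as ileum. The antisense transcript HOXA10-AS, not counted as a member, had signals of 351 and 298 on its brighter probe set and 284 and 281 on the other.

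The HOXB cluster was read above background at 4 places. HOXB2, a hindbrain gene, had a signal of 169 in the corn pool and 130 in the paddy rice pool, a ratio of 0.773. HOXB3 had 225 and 278, a ratio of 1.24. HOXB5, which in the mouse takes part in the development of enteric neurons, had 304 and 302, a ratio of 0.993. HOXB7 had 152 and 183, a ratio of 1.20. Among the 4 genes, on their brightest probe sets, HOXB3 and HOXB7 were higher on paddy rice and HOXB2 lower, each by less than a 1.5-fold ratio. For HOXB3 and HOXB7 this rests on the probe set: the median over probe sets gave 0.749 for HOXB3 and 1.01 for HOXB7.

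The other HOXB genes were at or under background on at least 1 array. HOXB1, the hindbrain gene at the anterior end, had 67.8 in the corn pool and 15.0 in the paddy rice pool on its brightest probe set, and its other 4 probe sets lay under background on both arrays. HOXB4, known from blood stem cells, had 71.6 and 41.2. HOXB6 had 49.7 and 41.6. These 3 genes passed background on corn alone. HOXB8 had 2.41 and 3.32, and HOXB13, a gene of the tail end and prostate, 5.89 and 3.74, both far under background on either diet.

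In the HOXC cluster, HOXC9, a gene of the thoracic region, was well above background, with a signal of 582 in the corn pool and 669 in the paddy rice pool, a ratio of 1.15. HOXC13, a gene of hair and nail in mammals, had 93.6 and 90.5, about 2 times background. Its brightest probe set is built on the reverse orientation of the source sequence, as the letter A in its identifier marks, and the other 2 lay under background, so the signal may not report the sense transcript. HOXC8 had 56.5 and 23.7 and HOXC11 45.2 and 34.7. Both passed background on corn alone.

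The HOXD cluster had the lowest median log2 ratio of the 4 clusters, -0.75 over its 3 genes above background on both arrays. HOXD10, a gene of limb and posterior spinal cord, had a signal of 120 in the corn pool and 46.5 in the paddy rice pool, a ratio of 0.388. On corn this was 2.72 times background and on paddy rice 1.03 times, so the ratio is bounded by background on the paddy rice side. HOXD11, its neighbour, had 144 and 85.3, a ratio of 0.593, and stood above background on both arrays, at 3.26 and 1.89 times. With the 99th percentile as background (78.2 on corn and 96.3 on paddy rice), both HOXD10 and HOXD11 were under it on paddy rice, and 0 of the 14 HOX genes then above background on both arrays had a ratio below 0.67. HOXD8, the neighbour towards the anterior end among the genes measured, had 74.2 and 40.7, a ratio of 0.548, with the paddy rice signal under background.

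Every probe set of this stretch had a lower value on paddy rice, but not all at a readable signal. The stretch was set apart because of its low ratios, so this is not separate support. HOXD8, HOXD10 and HOXD11 have 5 probe sets of their own and 1 that the annotation gives to HOXD8 and HOXD10 together, and all 6 had ratios below 0.67, from 0.146 to 0.593. On corn 5 of the 6 lay above background and on paddy rice 2 did. The lowest ratio, 0.146, came from the second HOXD8 probe set, with 36.85 and 5.376, under background on both arrays. That ratio has no readable direction. The second HOXD10 probe set, of orientation A, went from 66.1 to 31.0, and the one shared by HOXD8 and HOXD10 from 45.9 to 23.4. The mean signals of the 6 ran from 14.1, under background, to 110.7. In that range 24.5% of 13483 chicken probe sets had ratios below 0.67 and 22.7% had ratios above 1.5. Ratios past a threshold were thus common there, while shares at lower cut-offs were not counted. Probe sets of the same or neighbouring genes can read overlapping transcripts and are not replicates.

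The HOXD genes at the ends of the cluster did not share these low ratios in a readable way. HOXD4, a hindbrain gene, had a signal of 53.8 in the corn pool and 48.8 in the paddy rice pool, a ratio of 0.906, at 1.22 and 1.08 times background. Its second probe set, marked as shared, was under background on both arrays, with 42.9 and 7.95. HOXD12 had 19.7 and 1.45 and HOXD13, a gene of digits and hindgut, 29.8 and 33.0. The signals of HOXD12 and HOXD13 were under background, so the ratios carry no direction.

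At the study's thresholds, none of the 29 genes had a ratio above 1.5, against 8.27% of named genes. A ratio below 0.67 was found for 8, against 8.57%. Of the 13008 named genes, 1076 were above 1.5 and 1115 below 0.67. Over the whole array the study reports far fewer genes past these thresholds, and its methods describe no further filter. The counts given here are thus not the study's own calls. The 8 were HOXB1, HOXB4, HOXB13, HOXC8, HOXD8, HOXD10, HOXD11 and HOXD12. Of these, 6 were under background on paddy rice and 2 of the 6, HOXB13 and HOXD12, on both arrays, where a ratio has no readable direction. Ratios past either threshold were more common at low signals: in the range given above, 24.5% of probe sets were below 0.67 and 22.7% above 1.5. That range reaches under background, counts probe sets and not genes, and does not include HOXB13 and HOXD12, which lie under it. Among the 18 genes above background on both arrays, none was above 1.5 (3.24% of such named genes) and HOXD10 and HOXD11 were below 0.67 (3.01%). Of named genes between background and the median chicken signal, 11.0% were below 0.67, and HOXD10 was 1 of 4 HOX genes there, while HOXD11 lay just over the median. With 34.5 (the 25th percentile of signals) added throughout, 4 genes were below 0.67, and HOXD11 was at 0.672, just outside the threshold.

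The median log2 ratio of the 18 genes was -0.097, against -0.0012 for the 10737 named genes above background on both arrays, and 12 of the 18 had ratios under 1, against 50.2%. Over all 29 genes, those under background included, the median was -0.23 and 21 had ratios under 1, against 50.5% of named genes. By cluster, the median over genes above background on both was -0.16 for HOXA, 0.13 for HOXB, 0.075 for HOXC and -0.75 for HOXD. Of these values, that of HOXB rests on 4 genes, that of HOXD on 3 and that of HOXC on 2. With genes under background included, the medians were -0.17 for HOXA, -0.26 for HOXB, -0.22 for HOXC and -0.81 for HOXD. The sign for HOXB and HOXC thus depended on the background filter. Apart from HOXD10 and HOXD11, the genes above background on both arrays had ratios between 0.739 and 1.24.

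**Figure D2:**
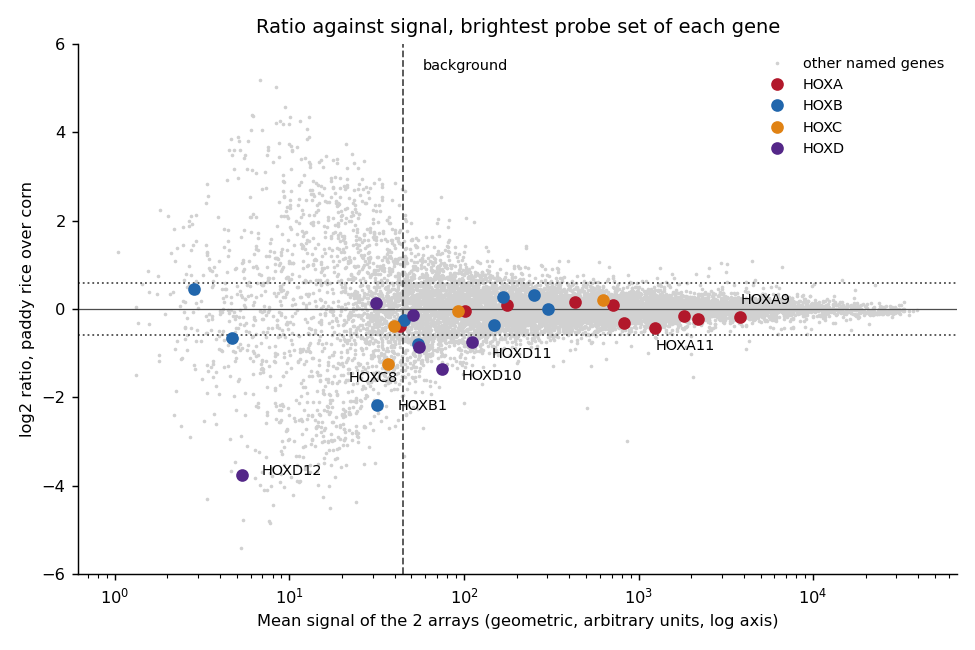
Log2 ratio of paddy rice over corn against the mean signal of the 2 arrays for HOX genes (coloured by cluster) and all other named genes (grey); dotted lines mark ratios of 1.5 and 0.67, the dashed line marks background, and points past 6 on the log2 scale in either direction (3 genes) are not drawn. Ratios of all genes spread widely towards low signals. HOXB4, HOXD8, HOXD10 and HOXD11 lie to the right of background and below the lower dotted line, HOXB4 and HOXD8 with a paddy rice signal under background.

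HOX genes that passed background on a single array all passed it on corn. This held for the 7 such HOX genes (HOXA2, HOXB1, HOXB4, HOXB6, HOXC8, HOXC11 and HOXD8), while 56.4% of the 858 named genes above background on 1 array were above on corn. Counted by probe set, 27 of 59 lay above background on both arrays and 12 on corn alone, and no HOX probe set on paddy rice alone. The 12 include the brightest probe sets of the 7 genes, so this count is not separate support. HOXB1, HOXB4, HOXC8 and HOXD8 are also among the genes with a ratio below 0.67, so the counts partly restate those ratios. Of all chicken probe sets above background on 1 array, 54.0% were above on corn. Some of the HOX splits rest on signals close to the level. On corn, HOXC11 was at 1.03 times background, HOXA2 at 1.12 and HOXB6 at 1.13. The second HOXB1 probe set, with 6.55 on corn and 43.9 on paddy rice, lay just under the paddy rice level of 45.1. All 7 HOX probe sets with a ratio above 1.5 were under background on both arrays.

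**Figure D3:**
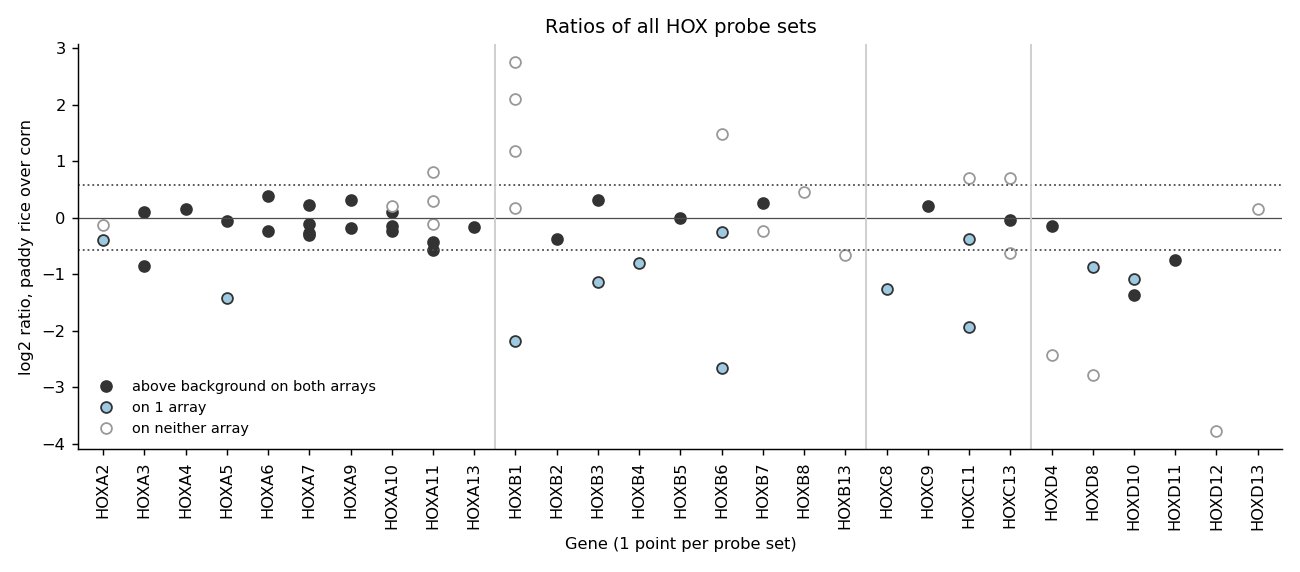
Log2 ratio of paddy rice over corn for each of the 59 HOX probe sets, by gene in cluster order; filled points lie above background on both arrays, blue points on corn only and open points on neither, and dotted lines mark ratios of 1.5 and 0.67. The 7 points above the upper dotted line are all open, and the HOXD8, HOXD10 and HOXD11 points all lie below the lower one.

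Probe sets of the same HOX gene did not always tell the same story. Of the 17 genes with several probe sets, 6 had more than 1 above background on both arrays, and in 1 of these, HOXA11, such probe sets all lay on the same side of a ratio of 1. The second probe set of HOXA3 went from 112 on corn to 62.0 on paddy rice, a ratio of 0.554, against 1.07 on the brightest. For HOXA6 the second probe set had a ratio of 1.31, against 0.850. For HOXA9 it went from 114 to 141, a ratio of 1.24, against 0.881. The 4 probe sets of HOXA7 had ratios of 0.809, 0.833, 0.921 and 1.17, in order of falling signal. The 3 probe sets of HOXA10 above background ran from 0.845 to 1.07. The other HOXA5 probe set, of orientation A, went from 104 to 38.8, a ratio of 0.375, against 0.965 on the one marked as shared, and the second HOXB3 probe set from 73.6 to 33.3, a ratio of 0.453. The remaining probe sets of members above background were under background on both arrays: the fourth of HOXA10 at a ratio of 1.15, the last 3 of HOXA11 at 0.928 to 1.75, the second of HOXB7 at 0.849, and the other 2 of HOXC13 at 1.63 and 0.651.

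The annotated spans of some HOX genes overlap. In the RefSeq annotation 8 pairs of members overlap, with 10 genes among them: HOXA3 with HOXA4, HOXA5 and HOXA6, HOXA9 with HOXA10, HOXB3 with HOXB4, HOXB5 and HOXB6, and HOXB5 with HOXB6. Transcripts were not examined, so whether signals of these genes come from a common transcript was not tested. No HOXD member overlaps another there.

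The cofactors of HOX proteins were measured on the same arrays. All 6 of the 9 listed cofactor genes that had a named probe set were above background on both arrays, and none was past a threshold. Of all named genes, 82.5% were above background on both arrays. Of those, 3.24% had ratios above 1.5 and 3.01% below 0.67. PBX3 had 2901 and 2919, a ratio of 1.01. MEIS1 had 129 in the corn pool and 174 in the paddy rice pool, a ratio of 1.34, MEIS2 291 and 357, a ratio of 1.23, and PKNOX2 92.2 and 123, a ratio of 1.34. PBX4 and PKNOX1 had ratios of 0.975 and 0.929. The median log2 ratio of the 6 was 0.15, and that of the 18 HOX genes above background on both arrays was -0.097. The SD of 0.27 is a spread of single ratios between probe sets at or above the median chicken signal. It does not measure the spread of a median over genes, so it gives no scale for these medians.

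Of the CDX genes, which activate posterior HOX genes, CDX1 and CDX2 mark intestinal epithelium. CDX1 had 3258 in the corn pool and 3559 in the paddy rice pool, CDX2 7159 and 6456, and CDX4 255 and 260. Their ratios lay between 0.902 and 1.09.

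Of the chromatin regulators, 14 of 16 measured Polycomb genes were above background on both arrays, against 82.5% of named genes. None of the 14 was past a threshold (3.24% of such named genes above 1.5, 3.01% below 0.67). Their median log2 ratio was 0.035. EZH2, the enzyme that methylates histone H3 at the silent HOX genes, had 1454 and 1716, a ratio of 1.18, and EED, its partner, 1591 and 1769, a ratio of 1.11. PCGF2, another Polycomb gene, had 357 and 278, a ratio of 0.780. Of 8 measured Trithorax and demethylase genes, 7 were above background on both with a median of -0.042, and KMT2A, the methyltransferase that keeps HOX genes active, had 2384 and 2315. KDM6A, which removes the silencing mark, had 533 and 384, a ratio of 0.720. KMT2D was below 0.67, with 81.0 in the corn pool and 36.7 in the paddy rice pool, the latter under background.

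Of 13 measured genes of the retinoic acid axis, 9 were above background on both arrays (82.5% of named genes). Their median log2 ratio was 0.046. ALDH1A2, an enzyme that makes retinoic acid, had 72.7 in the corn pool and 114 in the paddy rice pool, a ratio of 1.56. Its corn signal was under the 99th percentile level of background (78.2). RXRG, a retinoid receptor, had 13.1 and 88.4, above background on paddy rice alone, and CYP26B1, which degrades retinoic acid, had 80.6 and 37.9, above background on corn alone. The receptor gene RARB had 218 and 288, a ratio of 1.32. ALDH1A1 had 17116 and 18684, a ratio of 1.09.

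Markers of the cell types in the ileal wall were set beside the HOX values. Of all named genes, 82.5% were above background on both arrays. Muscle was part of the tissue, as MYH11, the smooth muscle myosin, had 18135 and 18175. The median log2 ratio was -0.052 for epithelium (7 of 7 measured genes above background on both arrays), 0.009 for smooth muscle (6 of 6), 0.19 for fibroblasts and matrix (7 of 7), -0.10 for endothelium (7 of 7) and -0.061 for leukocytes (7 of 7). For enteric neurons and glia it was -0.24, with 10 of 11 measured genes above background, 8 of these 10 under a ratio of 1 (50.2% of all named genes above background), and a summed signal of 7582 in the corn pool and 6039 in the paddy rice pool. SNAP25, a protein of nerve terminals, had 343 and 210, a ratio of 0.613, and S100B, a glial calcium-binding protein, 1856 and 1092, a ratio of 0.588, while RET, the receptor of enteric neuron progenitors, had 550 and 555. CHAT, which makes acetylcholine, had 65.9 and 79.7, a ratio of 1.21, and ELAVL4 and SOX10 had ratios of 0.960 and 0.938. Without S100B, left out after its values were seen, the summed signal was 5726 and 4947. Lower signals on paddy rice were thus seen for some of these markers beside HOXD8, HOXD10 and HOXD11, and their part in the HOXD ratios was not tested. Past a threshold in the other lists were ACTA2, with 49.6 and 74.7, a ratio of 1.51, PECAM1, with 958 and 570, a ratio of 0.595, and CD79B, with 119 and 79.1, a ratio of 0.667. Both ACTA2 signals, and the CD79B signal on paddy rice, were under the 99th percentile levels of background (78.2 on corn and 96.3 on paddy rice). CUBN, in the list of ileal markers, had 139 and 373, a ratio of 2.69.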

How the data were processed

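The authors hybridised pooled ileal RNA to GeneChip Chicken Genome Arrays and computed MAS5 signals. The deposited values are signal intensities per probe set on a linear scale, without detection calls. Probe sets were named from the platform annotation: 27166 chicken probe sets had 1 gene, 177 had several and 10350 had none. Current symbols came from the RefSeq table of assembly GRCg7b by Entrez identifier. Gene positions in that table served only to find which members overlap. No HOX sequence was used here.

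Members were the genes named HOXA to HOXD with a number, without HOXA10-AS. A gene took its probe set of highest mean log2 signal. Every member is given with its signals, and members above background on both arrays with all probe sets or their range. The background level, the thresholds of 1.5 and 0.67 and the 16 lists (129 of 166 entries measured, 2 by platform symbol only) were chosen with earlier results of these data known. Of a list, its counts are given, with members past a threshold and above background on at least 1 array. The other listed genes named, such as EZH2, KDM6A, RARB, RET and CHAT, were chosen after their values were seen. Ratios were not tested, as each diet had 1 array, and the number of arrays limits the precision.

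The alternatives were median centring, quantile normalization, an offset, the median probe set of each gene, omission of shared probe sets, signal filters, other thresholds and other background levels. Omission of probe sets of orientation A was added after seeing the data. The calculations were tested on simulated data. The scripts ran under Python 3.11.15 with pandas 2.3.3, numpy 2.4.6 and matplotlib 3.10.9.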

Additional observations from a re-analysis of the deposited data

How the results depend on the processing

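The number of HOX genes above background on both arrays was 18. It was 14 with the 99th percentile as background, none of them below 0.67, 13 with the median chicken signal or the median probe set per gene, and 17 without shared probe sets or without probe sets of orientation A. No HOX gene was above 1.5 except HOXB1, at 2.28 with its median probe set (0.221 as deposited), and HOXC13, without its probe set of orientation A; each of these counts was 1. Of the 8 genes below 0.67, there were 9 with the median probe set, 10 without shared probe sets, 4 with the 25th percentile of signals added, 4 at a threshold of 0.5, 2 among genes above background on both arrays and 1 among those at or above the median signal. The median log2 ratio of -0.097 ran from -0.23 to -0.062 over its alternatives. HOXA5 was below 0.67 with its median probe set (0.601) and without the shared one (0.375), HOXB6 without the shared one (0.159) and HOXD4 with that median (0.410). With the 25th percentile added, HOXB4, HOXB13, HOXD8 and HOXD11 were no longer below 0.67 (0.713, 0.947, 0.692 and 0.672). The causes were not tested. Signals near background limit all of these ratios. No paired analysis was possible because each diet had 1 array.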

Other observations

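Other homeobox genes that lie beside the HOX clusters or are related to them were measured too. Of 12 such genes, 2 were above background on both arrays (82.5% of named genes), 5 on 1 array and 5 on neither (10.9%). Above it on both were MEOX2, a gene of mesoderm, with 569 in the corn pool and 653 in the paddy rice pool, a ratio of 1.15, and DLX5 with 106 and 135, a ratio of 1.27. EVX2, next to HOXD13, had 64.9 and 26.1 and DLX1 had 54.1 and 28.0, both above background on corn alone. EVX1, next to HOXA13, had 6.18 and 48.5, MEOX1 34.3 and 60.0 and EN1 39.6 and 52.9, all above background on paddy rice alone.

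Of 15 measured transcription factor genes of gut regions, 10 were above background on both arrays (82.5% of named genes). Their median log2 ratio was -0.11, and 7 had ratios under 1 (50.2% of named genes above background on both arrays). NKX2-3, a gene of intestinal mesoderm, had 354 and 268, a ratio of 0.756. HAND2, a gene of enteric neurons, had 322 and 269, a ratio of 0.834. PITX1, a hindgut and hindlimb gene, had 1258 and 1231, a ratio of 0.978. GATA5 and GATA6, genes of gut epithelium, had ratios of 1.10 and 1.09. SOX2, a foregut gene, was below 0.67, with 72.2 and 47.9, a ratio of 0.663. Both SOX2 signals were under the 99th percentile levels of background (78.2 on corn and 96.3 on paddy rice). GATA4, a gene of the proximal intestine, had 6.48 in the corn pool and 51.8 in the paddy rice pool, above background on paddy rice alone. Of 4 measured foregut markers 2 were above background on both arrays, and of 3 measured pancreas markers 1 was, AMY1A, with 353 and 283. The foregut markers PGA5 (32.9 and 86.9) and GKN2 (53.6 and 5.88) passed background on 1 array each.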
